A study of Mus musculus with 18 samples.

Results

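The genes of arginine metabolism and nitric oxide (NO) synthesis were described in bone marrow-derived macrophages (BMMs) with and without lipopolysaccharide (LPS). The 9 genes were chosen by name, as those that carry arginine into the cell, use it or rebuild it, and all 9 were found among the 38887 genes of the deposited libraries. They are Slc7a1 and Slc7a2 (arginine carriers), Nos2 (inducible NO synthase), Gch1 (cofactor synthesis), Ass1 and Asl (arginine rebuilding), Arg1 and Arg2 (arginases) and Odc1 (polyamine synthesis). RNA was sequenced in 18 libraries, 3 for each of 6 groups: WT, GILZ KO and GILZ TG, each untreated or after 4 h with 100 ng/ml LPS, the glycolipid of the outer layer of Gram-negative bacteria. BMMs were grown with M-CSF from bone marrow of female C57BL/6J mice. GILZ, the glucocorticoid-induced leucine zipper, is encoded by Tsc22d3. By the study's methods all 3 genotypes carry Cre at the Lyz2 locus, which is active in myeloid cells. WT mice have no further allele, GILZ KO mice lose a loxP-flanked part of Tsc22d3 in Lyz2-expressing cells, and GILZ TG mice express a Gilz cDNA from the ROSA26 locus once a stop cassette is removed. The mice were 10 to 23 weeks old, and no age is given for a single group in the sources used here.

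Macrophages take up arginine mainly through the cationic amino acid carriers CAT1 and CAT2. NO synthase converts arginine to NO and citrulline and needs tetrahydrobiopterin, whose synthesis starts with GTP cyclohydrolase (Gch1). Citrulline is turned back into arginine by argininosuccinate synthase (Ass1) and argininosuccinate lyase (Asl). Arginase competes for the same substrate and yields urea and ornithine, which ornithine decarboxylase (Odc1) commits to polyamines. Mouse macrophages exposed to LPS are known for NO production through Nos2, whereas a high level of Arg1 is known from macrophages exposed to IL-4.

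In the GRCm38 annotation, Nos2 lies at chr11:78920787-78960254 on the plus strand, Gch1 at chr14:47153895-47189413 on the minus strand and Ass1 at chr2:31470207-31520672 on the plus strand. Slc7a2 lies at chr8:40862396-40922308 on the plus strand and Arg1 at chr10:24915221-24927484 on the minus strand. The remaining members lie at chr12:79130777-79156301 (Arg2, plus), chr5:130011258-130029247 (Asl, minus), chr5:148327410-148399904 (Slc7a1, minus) and chr12:17544794-17551505 (Odc1, plus). Values are for whole genes, introns excluded. The promoters shown are those of Gch1 and Ass1, which rose with LPS, and of Odc1 and the first start site of Slc7a1, which were not called higher in TPM. RefSeq promoters (GRCm38.p6) matched 4 of the 9 members by symbol. Each is given 5′ to 3′ on the strand of the gene and covers the 250 bases before the RefSeq start site. Distances are counted from that site. For Ass1 and Odc1 it lies inside the gene coordinates given above, which start further upstream. The ends of the Ass1 and Odc1 stretches, with the matches nearest the RefSeq start, are therefore within the annotated gene. Capitals mark matches, on either strand, to 9 motifs: the GC box (GGGCGG), the CCAAT box, the TATA box (TATAAA), the E-box (CACGTG), the CRE core (TGACG), AP-1 (TGANTCA), the GAS element (TTCNNNGAA), C/EBP (TTNNGNAA) and the NF-kB motif.
Gch1, chr14:47189414-47189663, minus strand: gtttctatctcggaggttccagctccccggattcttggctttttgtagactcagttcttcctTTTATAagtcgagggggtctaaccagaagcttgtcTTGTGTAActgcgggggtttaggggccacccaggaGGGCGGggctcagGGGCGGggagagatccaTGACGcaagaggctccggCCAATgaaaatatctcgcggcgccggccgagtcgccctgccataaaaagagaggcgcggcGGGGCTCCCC
Ass1, chr2:31470020-31470269, plus strand: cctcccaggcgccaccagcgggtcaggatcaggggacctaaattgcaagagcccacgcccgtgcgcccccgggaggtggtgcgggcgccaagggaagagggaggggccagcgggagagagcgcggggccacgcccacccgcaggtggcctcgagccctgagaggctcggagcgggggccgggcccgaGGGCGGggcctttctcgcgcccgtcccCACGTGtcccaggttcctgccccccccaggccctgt
Odc1, chr12:17544623-17544872, plus strand: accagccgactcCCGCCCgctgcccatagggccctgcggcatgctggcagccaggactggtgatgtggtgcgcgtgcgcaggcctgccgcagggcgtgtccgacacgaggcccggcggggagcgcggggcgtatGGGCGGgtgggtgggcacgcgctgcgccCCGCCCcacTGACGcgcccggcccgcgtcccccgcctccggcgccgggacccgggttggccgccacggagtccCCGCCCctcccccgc
Slc7a1, chr5:148399905-148400154, minus strand: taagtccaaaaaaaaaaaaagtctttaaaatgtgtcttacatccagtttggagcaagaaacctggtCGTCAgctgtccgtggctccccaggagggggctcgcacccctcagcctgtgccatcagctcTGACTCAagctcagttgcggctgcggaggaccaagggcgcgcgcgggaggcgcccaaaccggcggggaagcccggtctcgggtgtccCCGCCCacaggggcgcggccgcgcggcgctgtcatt
The Gch1 promoter held 1 match to the NF-kB motif, which began 10 bases before the start site and which 7.3% of 32851 promoters of this length hold. It also held 1 CRE core match 88 bases and 1 CCAAT match 70 bases before the start, found in 17.8% and 33.8% of promoters, and a TATAAA match in reverse orientation at 188 bases (12.4% of promoters). In the Ass1 promoter there was 1 E-box at 36 bases (6.0% of promoters) and 1 GC box at 63 bases (32.7%). Odc1 had 4 GC boxes, and Slc7a1 had an AP-1 match at 123 bases (6.7% of promoters). Both also held a CRE core match, at 79 bases in Odc1 and at 184 bases in Slc7a1. These matches describe the letters only. None of the motifs was shared by all 4 promoters other than the GC box.

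As a check of the genotype, Tsc22d3 was at 14.9 to 18.8 TPM (an expression level scaled by transcript length and by the library total) in untreated WT, 1.89 to 2.81 in GILZ KO and 152 to 159.8 in GILZ TG BMMs. After LPS it was at 4.56 to 5.81 TPM for WT, 2.5 to 3.28 TPM for GILZ KO and 127 to 140.6 TPM for GILZ TG. GILZ KO was thus lower than WT by -2.74 on the log2 scale without LPS (SE 0.14, adjusted p = 2.16e-05) but by -0.69 after LPS (SE 0.14, adjusted p = 0.15), which was not called although the libraries did not overlap. The sum of counts on genes was between 14583055 and 38557029 per library. Lyz2 was at 6766 to 15401 TPM for WT and at 17.2 to 70.2 TPM for GILZ KO and GILZ TG libraries, although Cre at this locus is stated for all 3. A difference between WT and either other genotype cannot be told apart from this one in Lyz2. Of the macrophage markers, Adgre1, Csf1r, Cd68 and Itgam were at 318 to 1699 TPM in all 18 libraries, Fcgr1 at 66.7 to 493 TPM and Mertk at 1.63 to 7.33 TPM. GILZ TG replicates 1 and 2 stood apart, with 113 to 166 summed TPM of 6 stromal markers against 6.15 to 30.1 in WT and GILZ KO and 11.8 to 14.2 in GILZ TG replicate 3, and 187 to 516 TPM of 8 neutrophil lineage markers against 20.7 to 77.2 and 68.3 to 83.5. The 6 B lineage markers summed to 81.7 to 158 TPM in these libraries and to 16.8 to 35.5 in WT and GILZ KO libraries, and Ly6g, Elane and Cd79a were at or near 0. The 5 dendritic cell markers summed to 13.9 to 21.1 TPM in these libraries and to 3.92 to 7.18 in WT and GILZ KO libraries, with GILZ TG replicate 3 between them at 10.05 to 10.8. Of the 5 T and NK cell markers the highest sum was 0.25 TPM. In bulk RNA, fewer cells of a type and less RNA per cell cannot be told apart.

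LPS raised Nos2, Slc7a2, Gch1, Ass1 and Arg2 in all 3 genotypes. In WT BMMs, 6 of the 9 members were called higher (edgeR's quasi-likelihood test, Benjamini-Hochberg adjusted p below 0.05), against 33.5% of 13169 genes called higher and 68.6% called in either direction. The count was 7 of 9 in GILZ KO (33.2% called higher, 68.5% in either direction) and 6 of 9 in GILZ TG (33.6% and 68.7%). No member was called lower. The median log2 fold change of the 9 members was 2.38 in WT, 2.34 in GILZ KO and 2.67 in GILZ TG, beside -0.02 over all genes in each.

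These values are relative to the scaling between libraries. With TMM scaling of the counts, which sets the bulk of genes near 0, 4415 genes were called higher and 4622 lower in WT. On the log2(TPM + 1) scale the median of all genes was -0.51 in WT, -0.52 in GILZ KO and -0.51 in GILZ TG, and 2114 genes were called higher and 8556 lower in WT (limma), which is 16.1% and 65.0% of the genes tested, against 15.3% and 66.1% in GILZ KO and 15.6% and 65.2% in GILZ TG. The 5 genes above were called higher on both scales. Odc1 was called higher with TMM only, and Asl and Slc7a1 were called lower on the TPM scale only, so that 5 members were called higher and 2 lower on that scale in each genotype. Untreated and LPS libraries did not overlap in TPM for the same 7 members in each genotype, beside 81.2% of all genes in WT, 83.7% in GILZ KO and 80.9% in GILZ TG. Accordingly, levels are given in TPM and fold changes from the TMM fit.

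**Figure D1:**
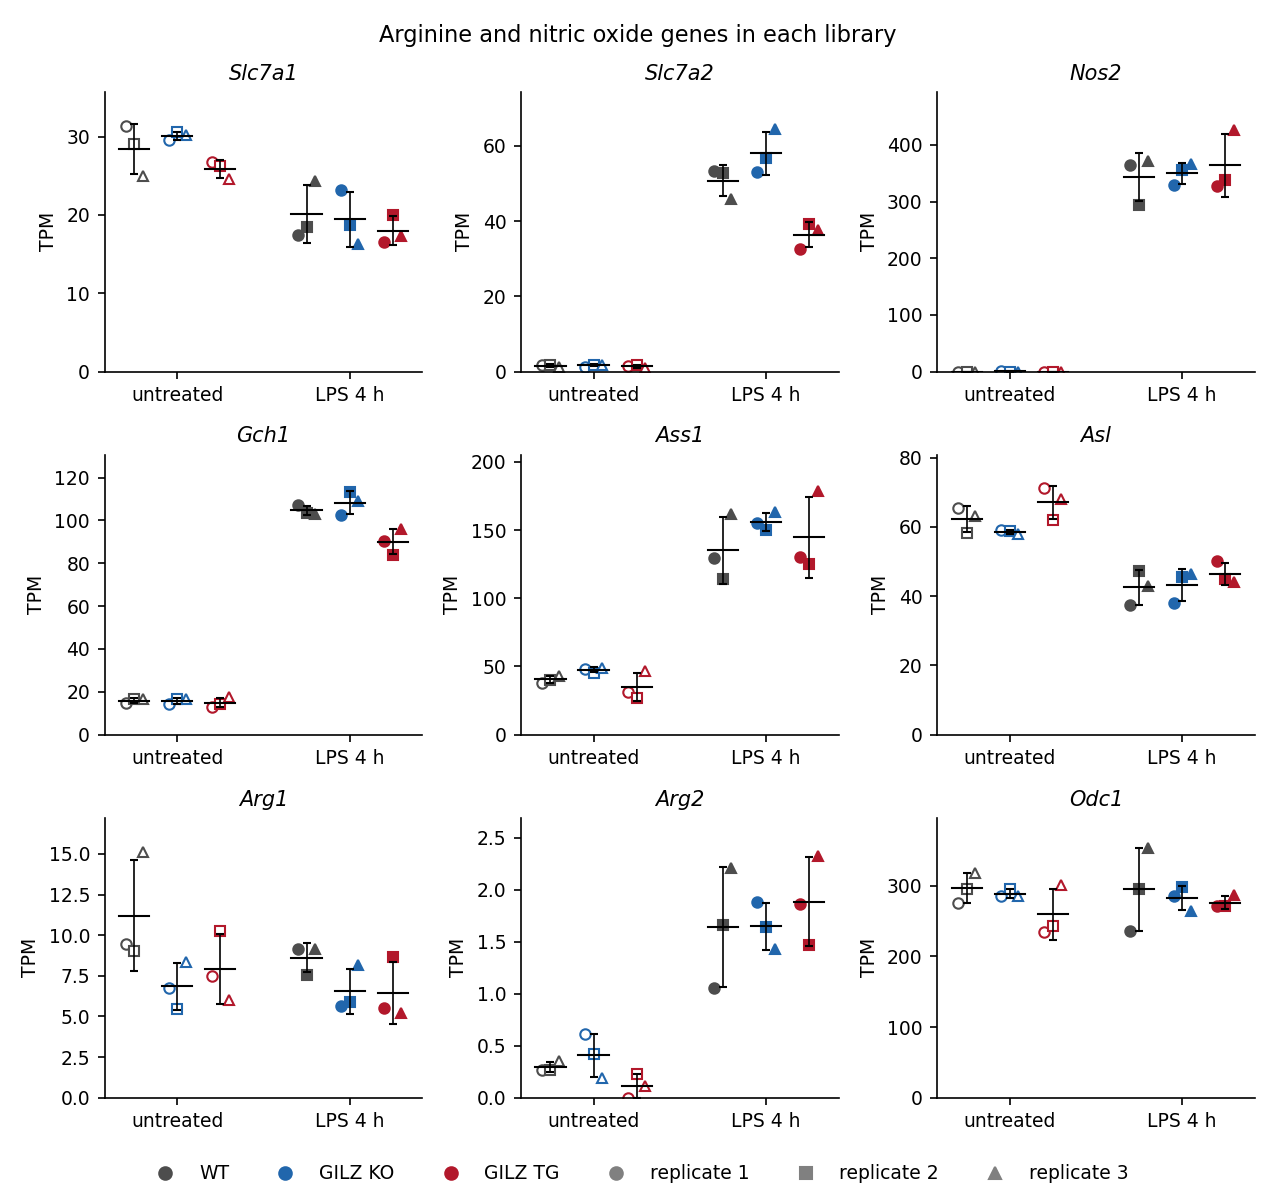
TPM of the 9 genes in each of the 18 libraries, with untreated libraries as open and LPS libraries as filled symbols, genotypes by colour and replicates by shape. Lines are means and bars are SD (n = 3), and each axis starts at 0. Nos2 and Slc7a2 are near the axis without LPS, and Slc7a2 and Gch1 are lower in the GILZ TG libraries than in the other LPS libraries.

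Nos2, the enzyme that makes NO in activated macrophages, was nearly absent without LPS. Untreated libraries had 0.16, 0.16 and 0.08 TPM for WT, 0.84, 0.06 and 0.08 TPM for GILZ KO and 0.16, 0.00 and 0.19 TPM for GILZ TG. After LPS the values were 365, 295 and 372 TPM for WT, 329.7, 355 and 366 TPM for GILZ KO and 327, 338 and 427 TPM for GILZ TG. Every LPS library was far above every untreated library, and the genotypes overlapped after LPS. The log2 fold change was 11.90 in WT (SE 0.44, adjusted p = 1.4e-13), 10.57 in GILZ KO (SE 0.40, adjusted p = 2.69e-13) and 12.30 in GILZ TG (SE 0.45, adjusted p = 1.46e-13). The untreated end of these fold changes rests on 0 to 50 counts per library, with the 50 counts in GILZ KO replicate 1. Dropping that preparation gave 12.91 for GILZ KO, and dropping GILZ TG replicate 2 gave 11.70 for GILZ TG. Nos1 and Nos3, the neuronal and endothelial synthases, had at most 10 and 8 counts in any library and did not pass the filter on low counts.

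Slc7a2 encodes CAT2, the inducible arginine carrier. It was at 1.85, 1.78 and 1.11 TPM for untreated WT, 1.37, 1.87 and 1.87 TPM for GILZ KO and 1.62, 1.78 and 0.97 TPM for GILZ TG. After LPS it reached 53.2, 52.9 and 46.0 TPM for WT, 53.2, 56.7 and 64.4 TPM for GILZ KO and 32.6, 39.1 and 37.6 TPM for GILZ TG. All 9 LPS libraries were above all untreated ones, with the 3 GILZ TG libraries lowest among them. The log2 fold change was 5.59 in WT (SE 0.19), 5.80 in GILZ KO (SE 0.19) and 5.34 in GILZ TG (SE 0.19), with adjusted p from 4.58e-14 to 9.77e-14. Dropping GILZ TG replicates 1 and 2 gave 6.10 for GILZ TG. Slc7a1, which encodes the constitutive carrier CAT1, went from 24.5 to 31.3 TPM over the 9 untreated libraries to 16.3 to 24.3 TPM over the 9 LPS libraries. Its TPM was lower in each genotype with no overlap (log2(TPM + 1) difference -0.49, -0.62 and -0.51 in WT, GILZ KO and GILZ TG; limma adjusted p = 0.00227, 0.000327 and 0.00183), whereas with TMM scaling it was not called (0.08, -0.03 and 0.10). It thus stayed within 0.11 of the median of all genes on the TPM scale.

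Gch1, the first and rate-limiting enzyme of tetrahydrobiopterin synthesis, rose in each genotype. It was at 14.8, 16.5 and 16.5 TPM for untreated WT, 14.2, 16.6 and 16.7 TPM for GILZ KO and 13.1, 14.4 and 17.4 TPM for GILZ TG. LPS libraries had 107, 104 and 103 TPM for WT, 102 to 113 TPM for GILZ KO and 90.3, 84.1 and 95.9 TPM for GILZ TG. The genotypes overlapped without LPS, and the GILZ TG libraries were below all others after it. The log2 fold change was 3.35 in WT (SE 0.11), 3.41 in GILZ KO (SE 0.11) and 3.22 in GILZ TG (SE 0.11), with adjusted p from 4.51e-14 to 7.47e-14.

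Ass1 catalyses the rate-limiting step that returns citrulline to arginine. Without LPS it was at 38.1, 40.3 and 43.2 TPM for WT, 48.0, 45.6 and 48.9 TPM for GILZ KO and 31.4, 27.2 and 46.5 TPM for GILZ TG. With LPS it was at 129, 114 and 162 TPM for WT, 155, 149.8 and 163 TPM for GILZ KO and 130.3, 125 and 179 TPM for GILZ TG. GILZ TG replicate 3 was well above the other GILZ TG replicates in both treatments. The log2 fold change was 2.38 in WT (SE 0.18), 2.34 in GILZ KO (SE 0.19) and 2.67 in GILZ TG (SE 0.19), with adjusted p from 1.03e-09 to 5.36e-09. Asl, the next enzyme, had 57.9 to 71.2 TPM without and 37.4 to 50.1 TPM with LPS, and its TPM was lower in each genotype with no overlap (-0.55, -0.43 and -0.52 in WT, GILZ KO and GILZ TG on the log2(TPM + 1) scale). With TMM scaling it was not called in WT (-0.05) or GILZ TG (0.03), and in GILZ KO it was called higher by 0.18 (SE 0.07, adjusted p = 0.0287). That call was lost when GILZ KO replicate 1, GILZ KO replicate 2 or WT replicate 3 was dropped (0.17, 0.18 and 0.16). It was also lost with no filter on low counts (0.155, edgeR adjusted p = 0.126) and in GILZ KO libraries alone (0.17, edgeR adjusted p = 0.0505). The direction of Asl therefore turned with the scaling, and its change was within 0.09 of the median of all genes on the TPM scale.

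Arginases were low in these BMMs. Arg1 was at 9.45, 9.01 and 15.1 TPM for untreated WT, 6.72, 5.47 and 8.34 TPM for GILZ KO and 7.49, 10.3 and 6.00 TPM for GILZ TG. After LPS it was at 9.12, 7.58 and 9.15 TPM for WT, 5.62, 5.90 and 8.15 TPM for GILZ KO and 5.50, 8.66 and 5.24 TPM for GILZ TG. Untreated and LPS libraries overlapped in every genotype, and Arg1 was not called in any, with log2 fold changes of 0.25 in WT (adjusted p = 0.386), 0.57 in GILZ KO (adjusted p = 0.066) and 0.33 in GILZ TG (adjusted p = 0.251). On the log2(TPM + 1) scale these were -0.31, -0.05 and -0.26. Alternatives called the GILZ KO value: it was 0.60 with DESeq2 (adjusted p = 0.0377) and 0.56 in GILZ KO libraries alone (adjusted p = 0.0184). Dropping GILZ TG replicate 2 gave 0.57 (adjusted p = 0.0405) and dropping WT replicate 3 gave 0.55 (adjusted p = 0.0443).

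Arg2, the mitochondrial arginase, rose from a trace. It had 0.27, 0.27 and 0.35 TPM for untreated WT, 0.61, 0.42 and 0.19 TPM for GILZ KO and 0.00, 0.23 and 0.11 TPM for GILZ TG, which are 0 to 12 counts per library. After LPS it had 1.06, 1.66 and 2.21 TPM for WT, 1.88, 1.64 and 1.43 TPM for GILZ KO and 1.86, 1.47 and 2.33 TPM for GILZ TG, or 17 to 55 counts. Groups did not overlap within any genotype. The log2 fold change was 3.08 in WT (SE 0.46, adjusted p = 1.42e-05), 2.60 in GILZ KO (SE 0.46, adjusted p = 9.14e-05) and 4.51 in GILZ TG (SE 0.53, adjusted p = 7.71e-07), or 5.66 when GILZ TG replicate 2 was dropped. Even so, Arg2 remained the lowest of the 9 members after LPS in each genotype.

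Odc1, the first enzyme of polyamine synthesis, was abundant throughout, with 235 to 318 TPM over untreated and 236 to 353 TPM over LPS libraries, which overlapped in each genotype. With TMM scaling it was called higher by 0.62 in WT (SE 0.12, adjusted p = 0.000262), 0.60 in GILZ KO (SE 0.12, adjusted p = 0.000328) and 0.72 in GILZ TG (SE 0.12, adjusted p = 5.51e-05), while its difference on the log2(TPM + 1) scale was -0.03, -0.03 and 0.10 and was not called. Relative to the median of all genes on that scale, Odc1 was higher by 0.48 in WT and GILZ KO and by 0.61 in GILZ TG.

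**Figure D2:**
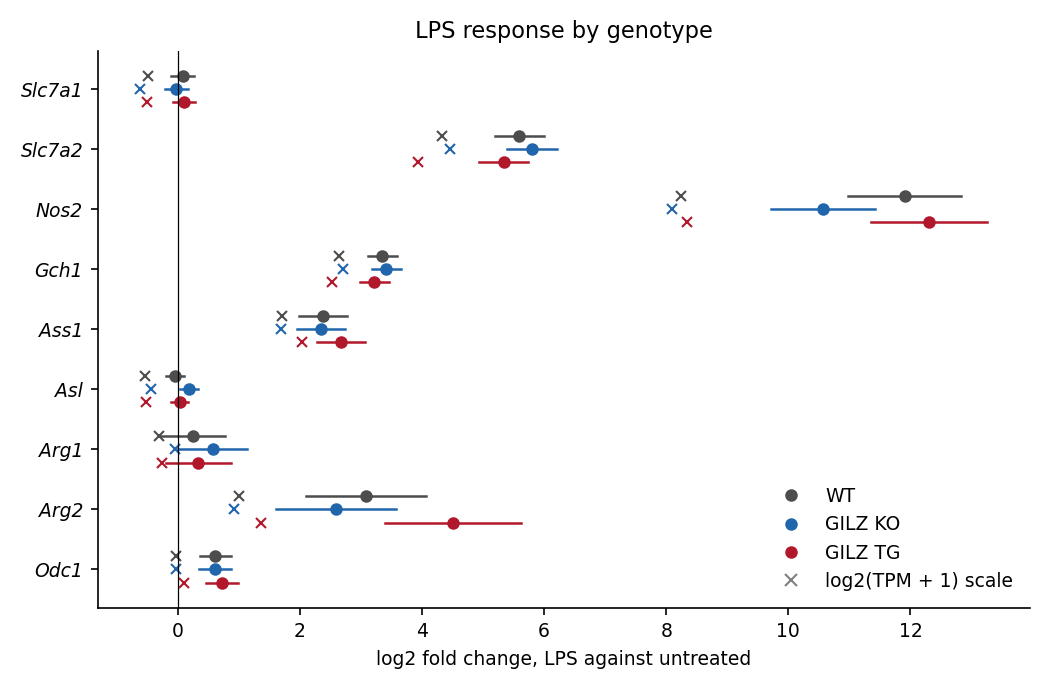
Log2 fold change of the 9 genes after LPS in each genotype from the fit with TMM scaling (points, with 95% confidence intervals as lines), and on the log2(TPM + 1) scale (crosses). Nos2 lies between 10.57 and 12.30 by the counts, and Slc7a1, Asl, Arg1 and Odc1 have crosses at or below 0.10.

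The order of the levels, which TPM allows across genes, changed with LPS. Without treatment Odc1 was highest in all 3 genotypes, followed by Asl, Ass1, Slc7a1, Gch1, Arg1 and Slc7a2, with Nos2 and Arg2 at the end. Only Gch1 and Arg1 in WT, and Arg2 and Nos2 in GILZ KO and GILZ TG, were neighbours whose libraries overlapped. After LPS Nos2 was highest, at 344 ± 42.7 TPM (SD, n = 3) for WT, 350.2 ± 18.5 TPM for GILZ KO and 364 ± 55.0 TPM for GILZ TG. Odc1 followed at 295 ± 58.6, 282 ± 16.8 and 276 ± 9.01 TPM, and in WT its libraries overlapped those of Nos2. Next came Ass1 and Gch1. Slc7a2 stood above Asl in WT, with overlap, and in GILZ KO, without overlap, and below Asl in GILZ TG, without overlap.

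Ratios of a pair of genes within a library do not depend on the scaling between libraries, and are given as a description. Ass1 was below Asl in all 9 untreated libraries (ratio of TPM 0.438 to 0.845, median 0.683) and above it in all 9 LPS libraries (2.41 to 4.08, median 3.46). Slc7a2 went from 0.0395 to 0.0677 of Slc7a1 to 1.89 to 3.94 times its level, so that CAT2 exceeded CAT1 RNA in every LPS library. The ratio of Nos2 to Arg1 was at most 0.125 without LPS and 38.9 to 81.5 with it. It was 40.0, 38.9 and 40.6 in WT, 58.7, 60.2 and 44.9 in GILZ KO and 59.4, 38.99 and 81.5 in GILZ TG. All 3 GILZ KO libraries were above all 3 WT libraries in this ratio, and GILZ TG libraries spanned both. The ratio was not tested. After LPS, 16.3% of all genes, taken singly, did not overlap in TPM between GILZ KO and WT. No such share was worked out for ratios. Neither Nos2 (edgeR adjusted p = 0.965) nor Arg1 (edgeR adjusted p = 0.565) was called in that comparison.

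**Figure D3:**
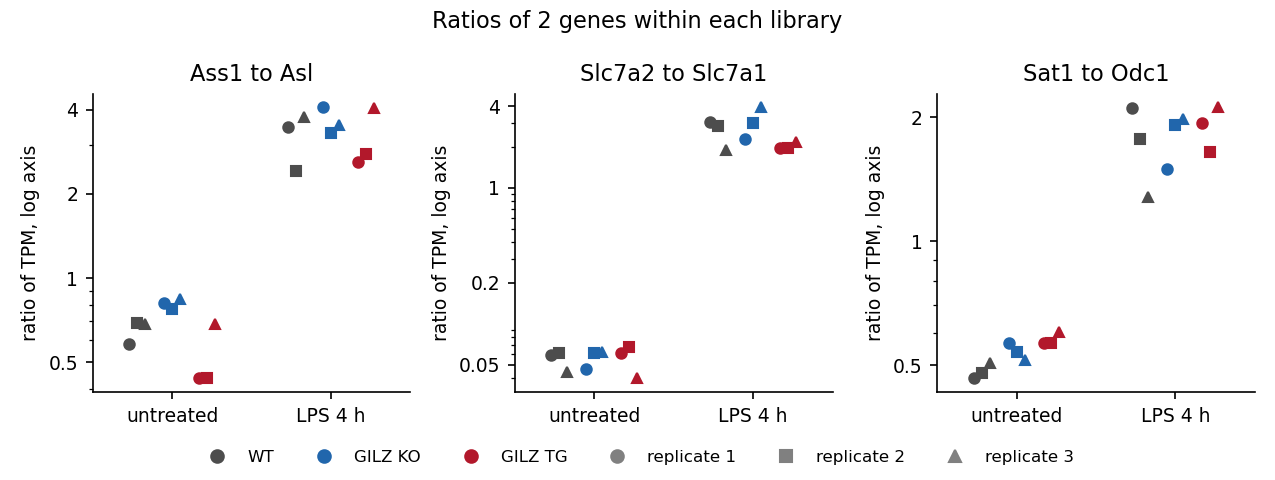
Ratio of the TPM of a pair of genes in each library on a log axis, for Ass1 to Asl, Slc7a2 to Slc7a1 and Sat1 to Odc1, by treatment, genotype (colour) and replicate (shape). Each ratio is higher in all 9 LPS libraries than in all 9 untreated libraries.

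Other genes of the pathway were taken from 5 lists with 50 genes. Of these, 49 were found, Prmt1 was not analysed here, and 39 passed the filter on low counts. With TMM scaling, 7 were called higher and 15 lower in all 3 genotypes, beside 29.3% and 30.3% of all genes. The 15 lower calls, and the calls of 3 higher genes (Sat1, Smox and Slc7a7), also stood in all 3 genotypes on the log2(TPM + 1) scale. On that scale 65.0% to 66.1% of all genes were called lower, so it was no separate check of the lower calls. Dhps and Oaz1 had opposite calls on the 2 scales.

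Of the 12 polyamine genes, 4 were called higher and 5 lower in WT, 4 and 4 in GILZ KO, and 5 and 4 in GILZ TG. Of all genes, 33.5%, 33.2% and 33.6% were called higher and 35.1%, 35.4% and 35.1% lower. The counts of the list were near these shares. Sat1, which acetylates spermidine and spermine for export or breakdown, rose by 2.40 in WT, 2.35 in GILZ KO and 2.46 in GILZ TG on the log2 scale, from 128 to 182 TPM in untreated to 427 to 606 TPM in LPS libraries. Smox, spermine oxidase, rose by 1.22, 1.14 and 1.08. The enzymes that build spermidine fell: Amd1, which makes the aminopropyl donor, at log2 fold changes of -0.96, -1.02 and -0.93, and Srm, spermidine synthase, at -0.96, -0.81 and -1.02. Paox, a polyamine oxidase, fell as well (-0.69 to -0.59), so the oxidases Smox and Paox went in opposite directions. The ratio of Sat1 to Odc1 moved from 0.464 to 0.603 without LPS to 1.28 to 2.12 with it.

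In the list of ornithine, proline and urea cycle genes, 5 of the 7 tested fell in each genotype and none rose, beside 35.1%, 35.4% and 35.1% of all genes called lower in WT, GILZ KO and GILZ TG. Among them were Slc25a15 (the mitochondrial ornithine carrier, -1.13 to -1.03), Pycr3 (-1.13 to -0.91), which makes proline, Prodh, which breaks it down (-0.90 to -0.73), and Aldh18a1 (-0.61 to -0.39). Otc and Cps1, the liver enzymes of the urea cycle, had at most 1 and 0 counts in any library, and a count of 0 allows up to 3 counts.

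The list of other arginine carriers and sensors had 8 tested genes, of which 2 rose and 4 fell in WT and 2 rose and 3 fell in GILZ KO and in GILZ TG, beside 33.2% to 33.6% of all genes called higher and 35.1% to 35.4% called lower. Slc7a7, a light chain that exports arginine, rose by 1.71, 2.19 and 1.96 in WT, GILZ KO and GILZ TG, and its partner Slc3a2 by 0.66, 0.78 and 0.68 with TMM scaling but only by 0.03, 0.15 and 0.05 on the log2(TPM + 1) scale. Slc7a6, the related light chain, fell, at -1.64, -1.47 and -1.56. Castor1, an arginine sensor upstream of mTORC1, and its relative Castor2 fell, at -1.10 to -1.06 and at -2.72 to -2.14. With GILZ TG replicates 1 and 2 left out, the GILZ TG calls of Castor1 (-0.93, adjusted p = 0.0683), Prodh (-0.69, adjusted p = 0.0536) and Pts (0.45, adjusted p = 0.0728) were lost. Slc7a7 was at 0.209 to 0.317 of the TPM of Slc7a6 without LPS and at 2.17 to 3.36 times its level after LPS.

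Among tetrahydrobiopterin genes and other NO synthases, 5 of 9 were tested. Spr, sepiapterin reductase, fell, at -0.72, -0.71 and -0.76. Pts, which acts between Gch1 and Spr, was called higher by 0.49, 0.52 and 0.58 with TMM scaling and had -0.13, -0.10 and -0.03 on the log2(TPM + 1) scale, not called. Thus Gch1 was the member of this branch that rose on both scales. In the list of arginine methylation, creatine synthesis and the NO receptor, 7 genes were tested. The receptor genes Gucy1a1 and Gucy1b1, with at most 2 and 6 counts in any library, were not among them. Of the 7, 2 fell in each genotype: Nosip (-0.65 to -0.58), which binds NO synthases, and Prmt5 (-0.59 to -0.47), an arginine methyltransferase. All genes were called lower at 35.1% in WT and GILZ TG and 35.4% in GILZ KO. Gatm was called higher in WT and GILZ TG with TMM scaling and lower on the log2(TPM + 1) scale in all 3 genotypes.

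**Figure D4:**
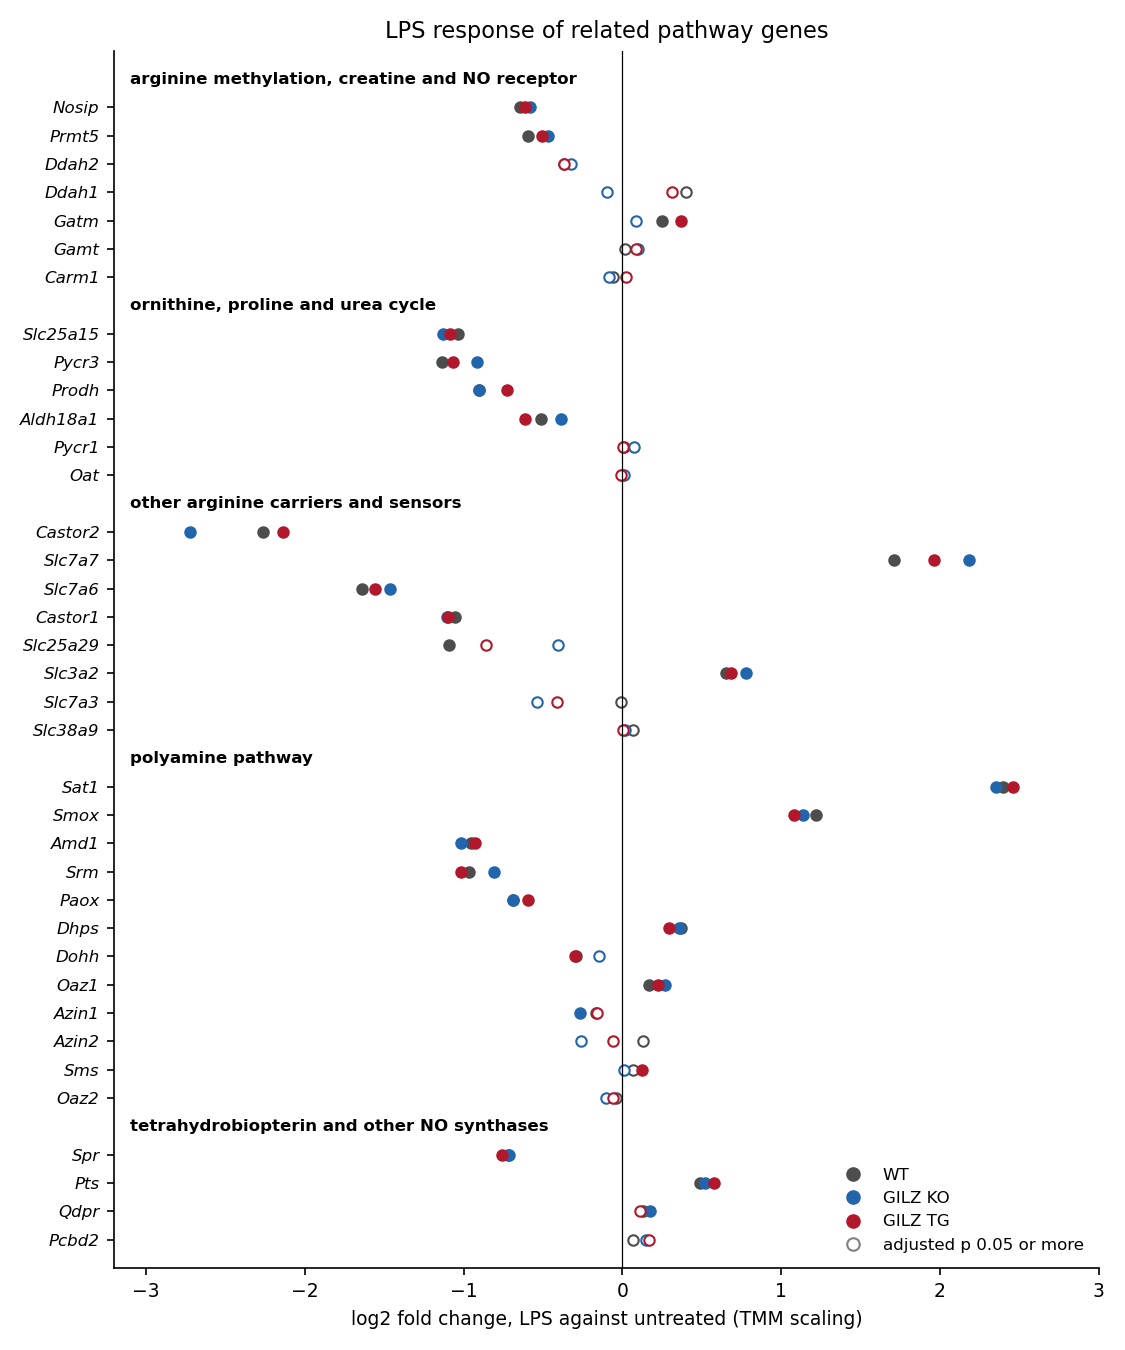
Log2 fold change after LPS of 37 of the 39 tested pathway genes in 5 lists, from the fit with TMM scaling, by genotype (colour). Filled points had an adjusted p below 0.05. Sat1, Smox and Slc7a7 lie to the right and the genes of the ornithine and proline list at or to the left of about 0.

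Whether the genotype changes these genes was asked within each treatment. Without LPS, 0 of the 7 tested members were called in GILZ KO against WT (0.0951% of 12621 genes called), in GILZ TG against WT (0.642%) or in GILZ KO against GILZ TG (4.94%) by edgeR, and 0 by DESeq2 or by limma on log2(TPM + 1). At an unadjusted p below 0.05 there were 1 (Arg1), 0 and 3 (Asl, Slc7a1 and Ass1), beside 9.6%, 14.1% and 24.6% of all genes. Nos2 and Arg2 did not pass the filter on low counts without LPS. Replicates did not overlap for 2 members in GILZ KO against WT (Arg1 and Ass1), beside 17.2% of all genes. They did not overlap for 0 members in GILZ TG against WT, beside 14.9%, and for 2 in GILZ KO against GILZ TG (Asl and Slc7a1), beside 28.7%. Arg1 was lower in GILZ KO than in WT by -0.76 (SE 0.27, 95% confidence interval -1.35 to -0.17, adjusted p = 0.425), and differed by -0.51 in GILZ TG (adjusted p = 0.419). Dropping WT replicate 3, the highest at 15.1 TPM, gave -0.44 and -0.20, neither called. The comparisons share their WT, GILZ KO or GILZ TG libraries.

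Untreated Ass1 and Odc1 in GILZ TG depended on 1 library. Ass1 differed by -0.20 from WT (adjusted p = 0.651) and GILZ KO exceeded GILZ TG by 0.41 (adjusted p = 0.171). Without GILZ TG replicate 3 both were called, at -0.48 (adjusted p = 0.0138) and 0.68 (adjusted p = 0.00146), and with GILZ TG replicates 1 and 2 left out they were 0.23 and -0.02. Odc1 in GILZ TG against WT likewise went from -0.20 (adjusted p = 0.422) to -0.33 without replicate 3 (adjusted p = 0.0494) and to 0.03 without replicates 1 and 2. The low values of Ass1 (31.4 and 27.2 TPM) and Odc1 (235 and 242 TPM) were in replicates 1 and 2, the libraries with high stromal and neutrophil lineage markers, and the part of these markers was not tested.

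After LPS, Slc7a2 was the member called in GILZ KO against GILZ TG, 1 of 9, where 2.6% of 12164 genes were called. It was higher in GILZ KO by 0.63 on the log2 scale (SE 0.10, 95% confidence interval 0.41 to 0.85, adjusted p = 0.0137), a 1.55-fold difference, with 3 of 3 GILZ KO libraries above 3 of 3 GILZ TG libraries. DESeq2 and limma on log2(TPM + 1) called it too, beside 715 of 12162 and 147 of 12164 genes. The call was lost when GILZ KO replicate 3 was dropped (0.55, adjusted p = 0.0659) or GILZ TG replicate 1 was dropped (0.55, adjusted p = 0.0543). Dropping GILZ TG replicates 1 and 2 together gave 0.56 (adjusted p = 0.166). The level in GILZ TG replicate 3 was 37.6 TPM, between those of replicates 1 and 2 and below all 6 WT and GILZ KO libraries. This replicate had stromal markers in the range of the other genotypes and dendritic markers above it. After LPS its neutrophil and B lineage markers were at 83.5 and 26.0 summed TPM, against at most 77.2 and 22.5 in WT and GILZ KO. The part of these markers was not tested. Slc7a2 in GILZ TG differed from WT by -0.44 (SE 0.10, 95% confidence interval -0.66 to -0.21, adjusted p = 0.0978), which DESeq2 called (adjusted p = 0.00553). So did edgeR when GILZ TG replicate 3 was dropped (-0.47, adjusted p = 0.027) or no genes were filtered (adjusted p = 0.00737). GILZ KO differed from WT by 0.19 (95% confidence interval -0.03 to 0.42, adjusted p = 0.574). The annotation lists 5 transcripts of Slc7a2, and the deposited mean transcript length was 6165, 6457 and 6266 bases in GILZ TG and 6240, 6190 and 5998 bases in GILZ KO after LPS, which overlapped.

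In GILZ KO and in GILZ TG against WT after LPS, 0 of 9 members were called by edgeR, where 0.0822% and 0.46% of genes were called. At an unadjusted p below 0.05 there were 0 and 2 (Slc7a2 and Gch1), beside 9.63% and 15.2% of all genes, and the same 2 in GILZ KO against GILZ TG, beside 19.1%. In the first pair DESeq2 called 0 and 1 (Slc7a2), beside 100 and 274 of 12162 genes, and limma on log2(TPM + 1) called 0 in both. Replicates of GILZ TG and WT did not overlap for these 2 genes, beside 15.2% of all genes, and the same 2 did not overlap between GILZ KO and GILZ TG, beside 20.6%. For GILZ KO and WT there were 0 such members, beside 16.3%. Gch1 was lower in GILZ TG than in WT by -0.21 (SE 0.08, 95% confidence interval -0.39 to -0.04, adjusted p = 0.232), and GILZ KO against GILZ TG gave 0.26 (SE 0.08, 95% confidence interval 0.08 to 0.44, adjusted p = 0.115), called at 0.32 without GILZ TG replicate 3 (adjusted p = 0.0277).

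Nos2 after LPS differed by 0.02 between GILZ KO and WT (95% confidence interval -0.24 to 0.29, adjusted p = 0.965), by 0.09 between GILZ TG and WT (-0.18 to 0.36, adjusted p = 0.787) and by -0.06 between GILZ KO and GILZ TG (-0.33 to 0.21, adjusted p = 0.834). With GILZ TG replicates 1 and 2 left out these were 0.02, 0.35 and -0.33, none called. Among the 36 tested pathway genes 0 were called by edgeR in any genotype comparison after LPS, and 0 of 38 without LPS. The largest count at an unadjusted p below 0.05 was 10, in GILZ KO against GILZ TG without LPS, beside the 24.6% of all genes. DESeq2 called 1 gene in GILZ KO against GILZ TG in each treatment: Dohh without LPS (edgeR -0.31, adjusted p = 0.0809) and Aldh18a1 after LPS (edgeR 0.38, adjusted p = 0.0653). Of all genes, DESeq2 called 1218 of 12618 without LPS and 715 of 12162 after LPS in that comparison.

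**Figure D5:**
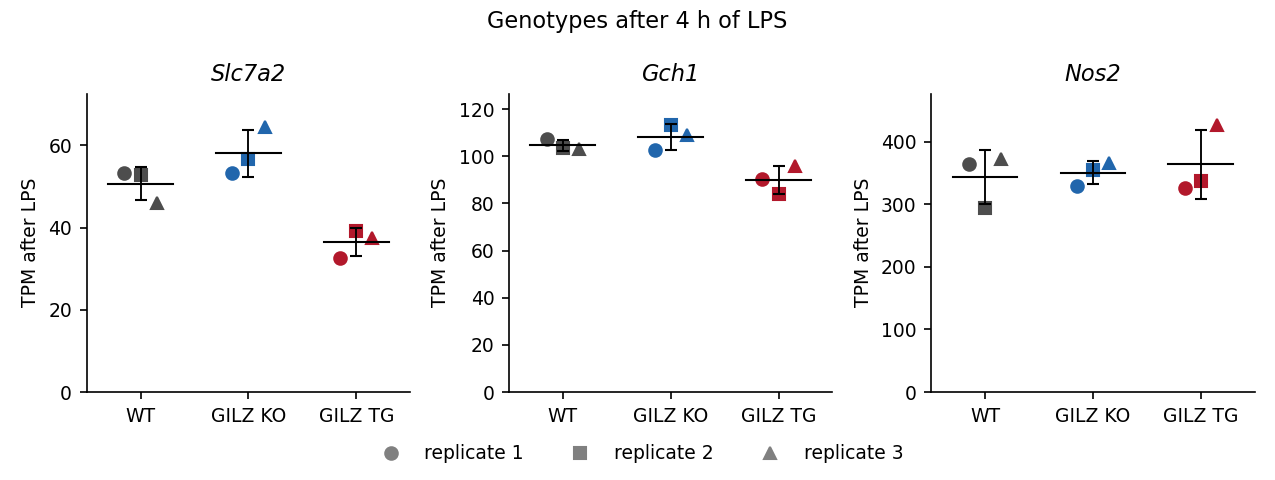
TPM of Slc7a2, Gch1 and Nos2 in the 9 LPS libraries by genotype, with replicates by shape, means as lines and SD as bars (n = 3), and axes from 0. The GILZ TG libraries are at 32.6 to 39.1 TPM of Slc7a2 and 84.1 to 95.9 TPM of Gch1, below all WT and GILZ KO libraries, whereas Nos2 overlaps.

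Whether the LPS response itself differed between genotypes was tested as a difference of differences. No member was called in GILZ KO minus WT (0.0152% of 13169 genes called), GILZ TG minus WT (0.00759%) or GILZ KO minus GILZ TG (0.121%) by edgeR, DESeq2 or limma on log2(TPM + 1). At an unadjusted p below 0.05 there were 1 (Asl), 0 and 1 (Arg2) members, beside 6.36%, 3.09% and 9.92% of all genes. The response of Slc7a2 differed by 0.47 between GILZ KO and GILZ TG (SE 0.26, 95% confidence interval -0.09 to 1.02, adjusted p = 0.615), or by -0.30 with GILZ TG replicates 1 and 2 left out. That of Arg2 differed by -1.91 (SE 0.73, 95% confidence interval -3.46 to -0.35, adjusted p = 0.351), which rests on the 0 to 12 counts without LPS. For Nos2 the differences were -1.34 in GILZ KO minus WT (95% confidence interval -3.08 to 0.41) and 0.40 in GILZ TG minus WT (-1.81 to 2.61). Dropping GILZ KO replicate 1 turned the first to 1.01 (adjusted p = 1) and dropping GILZ TG replicate 2 turned the second to -0.21 (adjusted p = 1), and neither was called in any setting run. Among the 39 pathway genes 0 were called by edgeR in the 3 differences, with 2, 0 and 2 at an unadjusted p below 0.05, and 0 by DESeq2 or limma.

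The genes whose pattern was most like that of Nos2 were chosen by Pearson's r of log2(TPM + 1) over the 18 libraries, among 9423 genes with a mean of at least 5 TPM. They were Ccrl2, Ifi211, Gbp2b, Ifi205 and Gbp7, each with r = 0.999. The 18 points fall into untreated and LPS libraries, and 958 genes had r above 0.95. Over the 9 LPS libraries alone r was 0.69 for Ccrl2 and 0.31 to 0.44 for the others. Arg1, which did not follow the treatment, had Gdf3 as its nearest gene (r = 0.717), then Gm10036 (r = 0.710) and Gm10736, Gm10180 and Gm3699, all with r = 0.647. No gene had r above 0.95 with Arg1.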

How the data were processed

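The 9 genes and the pathway and marker lists were chosen with earlier results of these data known. The deposited file of each library holds, per gene, an expected count (an estimated number of reads, not normalized) and TPM, both made by the authors with the grape-nf pipeline on GRCm38. The authors' DESeq2 1.40.2 tables (log2 fold change and p-value per comparison) were used only to pair identifiers with symbols. Identifiers without their version joined the files. Blank last rows in 14 files were dropped. Expected counts were rounded, filtered with filterByExpr, scaled by TMM and tested with edgeR 4.0.16 (quasi-likelihood, Benjamini-Hochberg over all genes, threshold 0.05). Genotypes were compared in the 9 libraries of a treatment, and LPS responses and their differences in all 18. Labels give 3 libraries per group, and the paper describes independent preparations. Alternatives were DESeq2 1.42.0 and its size factors, limma 3.58.1 on log2(TPM + 1) and log2(TPM + 0.1), no filter, replicate blocks, other sets of libraries and each replicate left out. Leaving out GILZ TG replicates 1 and 2 was chosen after seeing the data. Tests were tested on simulated data. Named were the 9 genes in every comparison, from each list up to 4 genes with the largest mean change called in all 3 genotypes or any called in a genotype comparison, Tsc22d3 and Lyz2, and the 5 genes most like Nos2 and Arg1; others were named after their values were seen. Motif shares were counted over all RefSeq promoters of the table. Coordinates are from GENCODE M21 (GRCm38). Figures were drawn with matplotlib 3.10.9. A few genes of the lists enter their counts but are not reported here by name.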

Additional observations from a re-analysis of the deposited data

How the results depend on the processing

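Nos2, Slc7a2, Gch1, Ass1 and Arg2 were called higher after LPS in all 3 genotypes under every alternative run. The number of members called after LPS was 6 to 7 in WT, 6 to 8 in GILZ KO and 6 to 7 in GILZ TG over all alternatives. Of 201 counts of members called under the alternatives, 192 stayed within 1.5 times the reported count. The 9 that moved were all in comparisons of genotypes. With 9 members, a reported 6 or 7 cannot rise past that bound, and a reported 0 stays only where nothing is called. Of 1644 values of single genes, 1561 kept their direction and their side of the threshold. In the comparisons of all 18 libraries a replicate was left out as a preparation, untreated and LPS together. The spread of a lone sample was then taken from the other groups.

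On log2(TPM + 1) and log2(TPM + 0.1), Arg1 after LPS was -0.31 and -0.34 in WT, -0.053 and -0.060 in GILZ KO and -0.26 and -0.29 in GILZ TG. Asl was -0.43 and -0.44 in GILZ KO and -0.52 and -0.53 in GILZ TG. Slc7a1 was -0.49 and -0.51 in WT and -0.51 and -0.53 in GILZ TG. Odc1 was -0.026 in WT and -0.034 in GILZ KO with both pseudocounts. Pts was -0.13 and -0.14 in WT, -0.10 and -0.11 in GILZ KO and -0.032 and -0.033 in GILZ TG. In these fits the scaling between libraries differs from TMM, and the median of all genes was lower, as given above. DESeq2 and its size factors gave 0.004 for Slc7a1 in GILZ KO.

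With GILZ TG replicates 1 and 2 left out, Asl in GILZ TG was -0.077, Ass1 untreated was 0.23 for GILZ TG against WT, whereas it was -0.019 for GILZ KO against GILZ TG, and Odc1 untreated was 0.026 in GILZ TG against WT. The difference of the LPS response was -0.30 for Slc7a2 (GILZ KO minus GILZ TG) and -0.13 for Nos2 (GILZ TG minus WT), and 0 members were called in GILZ KO against GILZ TG after LPS. Nos2 after LPS was 0.35 in GILZ TG minus WT and -0.33 in GILZ KO minus GILZ TG, neither called. Castor1, Prodh and Pts were no longer called in GILZ TG. DESeq2 and the fit without the filter on low counts each called 1 member in GILZ TG against WT after LPS.

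With 1 replicate left out, the members called ranged from 0 to 2 for GILZ TG against WT, with 0 to 1 for GILZ KO against GILZ TG, without LPS, and from 0 to 1 and 0 to 2 after LPS. The highest count was without GILZ TG replicate 3 each time, and 0 were called in GILZ KO against GILZ TG after LPS without GILZ KO replicate 3 or GILZ TG replicate 1. Asl after LPS ranged from -0.003 to 0.084 in GILZ TG, and Slc7a1 from -0.111 to 0.159 in WT and from -0.113 to 0.076 in GILZ KO. Nos2 after LPS ranged from -0.068 to 0.081 in GILZ KO against WT, from -0.063 to 0.162 for GILZ TG against WT, and from -0.137 to 0.088 for GILZ KO against GILZ TG. Its difference of responses ranged from -1.83 to 1.01 in GILZ KO minus WT and from -0.207 to 0.899 in GILZ TG minus WT. Pts lost its call in WT without WT replicate 2 (0.32) and in GILZ KO without GILZ KO replicate 2 (0.43). The cause was not tested.

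With the replicate number as a block, 6, 8 and 6 members were called after LPS in WT, GILZ KO and GILZ TG, 0 in each genotype comparison without LPS, 0, 0 and 1 in GILZ KO against WT, GILZ TG against WT and GILZ KO against GILZ TG after LPS, and 0 in each difference. The block called Arg1 in GILZ KO (0.56, adjusted p = 0.0076 by edgeR) and Dohh in untreated GILZ KO against GILZ TG (-0.31, adjusted p = 0.0177), and changed no other call named in the text. Same-numbered libraries correlated above 0.1, in their deviations from the group means, in 2 of 18 genotype pairs and in 4 of 9 pairs of untreated and LPS libraries. These 4 were all 3 pairs of GILZ TG (0.27, 0.40 and 0.61) and the pair of WT replicate 1 (0.26). The labels do not say whether a number marks a shared preparation. A low correlation cannot show that libraries were unpaired, so pairing in WT and GILZ KO was left undecided.

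Genes called in all went from 12 to between 5 and 79 over the alternatives in GILZ KO against WT without LPS, from 81 to between 16 and 665 for GILZ TG against WT, and from 623 to between 34 and 1306 in GILZ KO against GILZ TG. After LPS they went from 10 to between 4 and 100, from 56 to between 15 and 1067 and from 316 to between 24 and 1403. For the differences they went from 2 to between 1 and 21, from 1 to between 0 and 15 and from 16 to between 0 and 144. Leaving out GILZ TG replicate 3 gave the highest number in both comparisons of GILZ TG in each treatment. The values of Nos2 and Arg2 without LPS rest on 0 to 50 and 0 to 12 counts per library, the 50 counts in 1 library.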
